A study of Mus musculus with 2 samples.

Results

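Among sorted corneal epithelial cells of CycB1-GFP mice, 300 of 6188 cells carried RNA of both Krt12, the keratin of the differentiated corneal epithelium, and Krt15, a keratin of the limbal and conjunctival epithelium, in comparable amounts. The cells were selected on their raw counts of these 2 keratins. A cell was called mixed when it held at least 10 UMIs (unique molecular identifiers, each standing for 1 captured RNA molecule) of the 2 keratins together and Krt12 supplied 0.4 to 0.8 of them. Cells with a Krt12 share under 0.4 (1525 cells, the Krt15 class) and above 0.8 (4019 cells, the Krt12 class) served as the outer classes of the same library, and 344 cells had fewer than 10 UMIs of the pair. The classes are ranges of a measured share and not cell types.

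The study collected 2 libraries of 1 group, the corneal epithelium of mice of genotype CycB1-GFP, in which green fluorescent protein follows Cyclin B1 in cycling cells. Excised corneas were digested with Dispase, the epithelium was peeled off and dissociated with trypsin, and live cells positive for GFP were sorted for 10x Genomics droplet sequencing, so every cell described here had passed the same GFP gate. The series title names Sox9 in limbal stem cells and in the switch of cell fate in this epithelium. The sources used here do not say how many animals each library pools or which barcode suffix belongs to which labelled replicate. The p-values rest only on how far the class differences disagreed between these 2 libraries, after the level of each library was taken out. That disagreement may be technical.

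The corneal surface is renewed from the limbus, the rim where cornea meets conjunctiva, and basal cells that leave the limbus lose limbal genes and switch on the corneal programme. Krt12 belongs to that programme together with the enzymes Aldh3a1 and Tkt, which the cornea makes in crystallin-like amounts, whereas Krt15 and the hormone subunit Gpha2 mark the limbus and keratins such as Krt4 and Krt7 mark the conjunctiva. A droplet that carries both keratins can hold 1 cell with both RNAs, 2 cells, or 1 cell with free RNA of another, and the count of the 2 keratins does not distinguish these.

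Krt12 and Krt15 are both type I keratins on chromosome 11 (GRCm38, minus strand), Krt12 at chr11:99415666-99422259 and Krt15 at chr11:100131758-100135928 in GENCODE M21. Because the rule rests on telling their reads apart, the longest stretch of letters that their transcripts share exactly is shown. It spans 27 bases and lies in the coding part of both, at bases 703 to 729 of the Krt12 transcript and 661 to 687 of the Krt15 transcript.

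Shared run: cgtggaggccgacatcaacgggctgcg

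Within the last 400 bases of the 2 transcripts, the end that a 3' library reads, the longest shared run was 7 bases. The 250 bases before the start of 3 genes are shown next, in RefSeq sequence (GRCm38.p6), for Krt12 as the corneal keratin of the rule and for Serpina3n and S100a9 as genes that lay above both outer classes below. Capitals mark exact matches to 3 motifs on either strand. They are TATAAA, which reads TTTATA on the other strand, the letters CACCC, which read GGGTG there, and the palindrome TGANTCA. They were searched because they are the core of the TATA box, of many Krueppel-like factor sites and of the AP-1 site. No 2 of these motifs overlapped in the windows shown.

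Krt12, chr11:99422260-99422509, minus strand: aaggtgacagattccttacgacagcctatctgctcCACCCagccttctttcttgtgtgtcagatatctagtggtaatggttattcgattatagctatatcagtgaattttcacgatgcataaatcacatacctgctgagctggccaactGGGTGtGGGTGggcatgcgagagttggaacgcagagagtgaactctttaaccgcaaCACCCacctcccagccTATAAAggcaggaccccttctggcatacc

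S100a9, chr3:90695722-90695971, minus strand: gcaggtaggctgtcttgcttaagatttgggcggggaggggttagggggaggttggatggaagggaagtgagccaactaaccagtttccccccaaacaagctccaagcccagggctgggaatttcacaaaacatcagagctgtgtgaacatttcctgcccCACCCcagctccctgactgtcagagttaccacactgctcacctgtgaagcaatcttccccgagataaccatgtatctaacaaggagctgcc

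Serpina3n, chr12:104406458-104406707, plus strand: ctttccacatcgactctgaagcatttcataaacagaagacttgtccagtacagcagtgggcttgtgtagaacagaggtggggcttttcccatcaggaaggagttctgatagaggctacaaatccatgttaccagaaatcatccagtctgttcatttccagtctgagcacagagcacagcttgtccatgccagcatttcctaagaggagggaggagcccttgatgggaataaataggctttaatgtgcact

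The Krt12 window held TATAAA 29 bases before the start and 4 matches to CACCC or its reverse complement, between 215 and 45 bases before it. The S100a9 window held 1 CACCC at 91 bases before the start, and the Serpina3n window held none of the 3. Of all 32851 windows of this length in the table, 12.4% held TATAAA, 52.0% CACCC and 6.75% TGANTCA, so a CACCC match is common. These matches describe letters and show no binding. Of 11 genes looked up, 9 had an entry.

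Mixed cells made up 149 of 3187 cells in library 1 (4.68%, 95% Wilson interval 4.00 to 5.46%) and 151 of 3001 in library 2 (5.03%, 4.31 to 5.87%). The intervals cover counting error only and overlap between the libraries. The values that chose the cells are given as a description. A mixed cell held a median of 29 Krt12 and 17 Krt15 UMIs in library 1, and 33 and 19 in library 2. In the Krt15 class the medians were 2 Krt12 and 29 Krt15 UMIs in library 1 and 1 and 38 in library 2, and in the Krt12 class they were 79 and 0 in library 1 and 97 and 0 in library 2. Neither keratin in the mixed cells therefore reached the median of the class that is rich in it. The median Krt12 share was 0.608 in library 1 and 0.656 in library 2.

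The mixed range is part of the sparse middle of a distribution with cells piled at both ends. Just inside the lower edge (share 0.4 to 0.45) lay 14 cells in library 1 and 9 in library 2, against 15 and 16 just outside it (0.35 to 0.4). At the upper edge 23 and 30 cells lay just inside (0.75 to 0.8) and 48 and 45 just outside (0.8 to 0.85). Across the lower edge, median counts went from 13 Krt12 and 24 Krt15 UMIs outside to 18.5 and 25 inside in library 1, and from 16.5 and 28.5 to 25 and 32 in library 2. Across the upper edge they went from 35 and 11 inside to 44 and 9 outside in library 1, and from 44.5 and 13 to 43 and 8 in library 2.

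**Figure D1:**
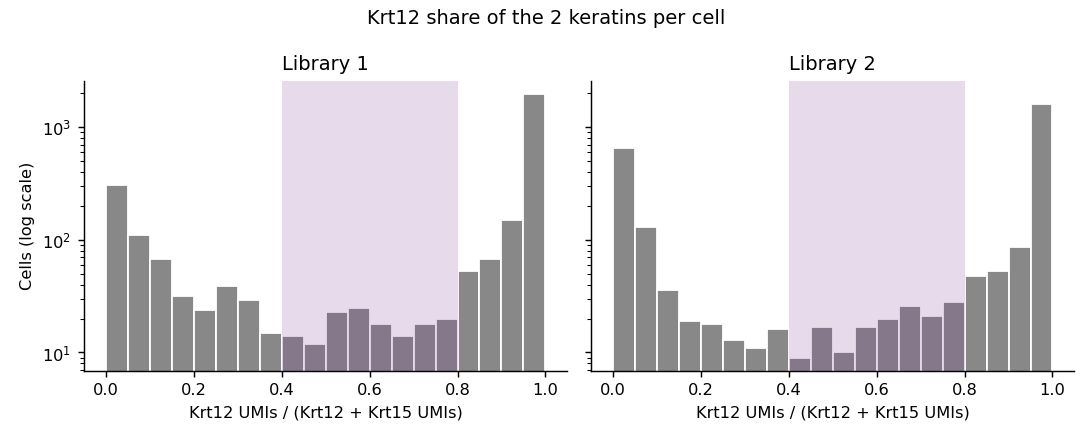
Histogram of the Krt12 share of Krt12 and Krt15 UMIs per cell in each library (x axis, bins of 0.05; y axis, cells on a log scale), with the mixed range from 0.4 to 0.8 shaded and a share of exactly 0.8 drawn in the bin to its right. Most cells sit in the bins nearest 0 and 1. The 149 and 151 mixed cells form part of the low floor between them, which also reaches below 0.4.

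Several technical measures stood apart in the mixed cells and are given before the gene results, since each moves with the class. Depth was 6560 UMIs and 2378 genes per mixed cell (medians) in library 1 and 6385 UMIs and 2322 genes in library 2, against 5061 and 5230.5 UMIs in the Krt15 class and 5854 and 6401 in the Krt12 class. It was above the Krt15 class in both libraries and above the Krt12 class in library 1 alone. The mixed median lay below the sum of the 2 outer medians, 10915 UMIs in library 1 and 11631.5 in library 2. At or above that sum were 14.8% of mixed cells in library 1 and 10.6% in library 2, compared with 6.09% and 6.33% of the Krt12 class and 2.24% and 2.11% of the Krt15 class. The doublet caller Scrublet marked 5 cells in all (0.0808%), too few to have worked, so doublets must be taken to remain. Its score nevertheless ranked mixed cells high. The top 5% of scores held 16.1% of the mixed cells in library 1 and 29.8% in library 2, against 1.28% and 1.56% of the Krt15 class and 4.03% and 3.70% of the Krt12 class. The part of doublets in the results was not tested beyond the values given without those cells.

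A further measure used the sex-linked transcripts, since Xist and Y-linked RNA do not normally occur in 1 cell. UMIs of both were found in 8 of 149 mixed cells in library 1 (5.37%, 2.75 to 10.2%) and 8 of 151 in library 2 (5.30%, 2.71 to 10.1%). In the Krt15 class the shares were 2.08% and 1.00% and in the Krt12 class 2.60% and 3.08%. After every cell was thinned to 2000 UMIs, 0 of 149 and 0 of 146 mixed cells held both, which, at 3 counts of the cells looked at, allow shares of up to 2.01% and 2.05% (upper Wilson bounds 2.51% and 2.56%). Thinned shares in the outer classes were 0.162% and 0.469% in the Krt15 class and 0.740% and 0.865% in the Krt12 class, so no difference could be read at the common depth.

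In barcodes with under 500 genes, 254 in library 1 and 221 in library 2, Krt12 made up 94.6% and 91.8% of the keratin pair. In the kept cells it made up 86.6% and 79.6%. Of the barcodes with under 500 genes, 53 and 79 held at least 10 UMIs of the pair, and 2 and 3 of those met the keratin rule. Cells with at least 3 of the immune markers, which should make neither keratin, held a median of 0 and 1 Krt12 UMIs and 0 and 0 Krt15 UMIs (5 cells in library 1 and 15 in library 2), below the mixed medians. Their highest Krt12 count was 2 UMIs in library 1 and 17 in library 2. Of the 15 in library 2, 1 was itself called mixed and 1 fell in the Krt12 class. A marker group of another tissue also moved with the class. At least 3 UMIs of conjunctival markers were found in 40.9% and 44.4% of mixed cells, between 74.9% and 86.2% of the Krt15 class and 8.64% and 8.74% of the Krt12 class. Markers of other cell types were low in the summed mixed cells, where endothelial markers were at 0, melanocyte markers summed to 2.64 and 5.51 CPM (the part of a sum's UMIs, without the 2 keratins, on the CPM scale), goblet markers to 25.5 and 34.9 and stromal markers to 1.76 and 6.43. Libraries shared 5 barcode sequences, and 1 mixed cell carried such a sequence.

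The first question was whether the mixed state holds for RNA that the rule did not use. Genes of the axis between the outer classes were chosen without the mixed cells: an adjusted p under 0.05 in edgeR's quasi-likelihood test, a difference of at least 1 on the log2 scale in each library, and at least 50 CPM in the higher class. This gave 122 genes higher in the Krt12 class and 121 higher in the Krt15 class. In that comparison of the outer classes, 14.9% of 11096 tested genes were called higher in the Krt12 class and 17.4% lower.

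Single mixed cells were intermediate for these genes as well. Of the UMIs that fell on either gene set, the Krt12-side genes supplied a median of 68.6% in the mixed cells of library 1 (quartiles 57.0 to 75.2%) and 69.4% in library 2 (61.8 to 76.3%). The medians were 30.7% and 21.6% in the Krt15 class and 92.0% and 93.2% in the Krt12 class. Between the 95th percentile of the Krt15 class and the 5th percentile of the Krt12 class lay 85 of 149 mixed cells in library 1 (57.0%) and 113 of 151 in library 2 (74.8%). Among the remaining mixed cells, 41 and 14 lay at or under that interval with the Krt15 class, and 23 and 24 at or over it with the Krt12 class. These shares are a description, since the classes were cut in the same cells.

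**Figure D2:**
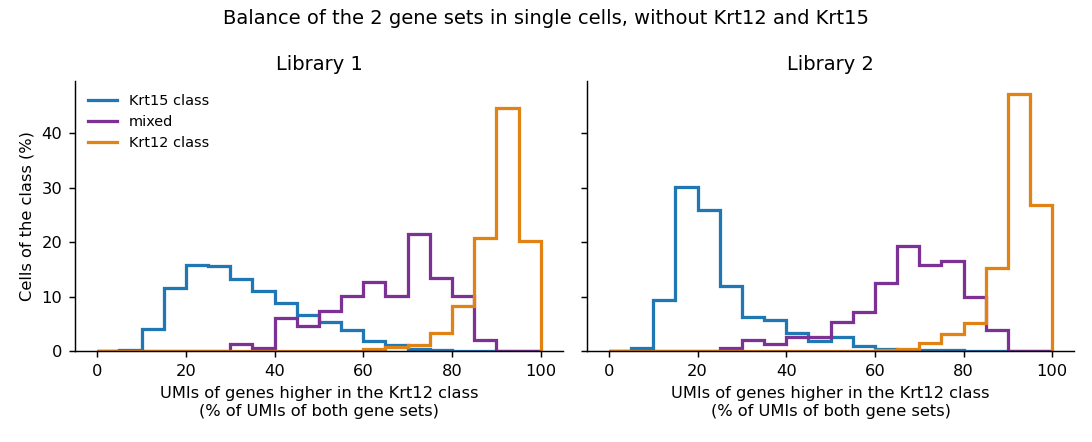
Distribution over single cells of the share of UMIs on the 122 Krt12-side genes among UMIs on both gene sets (x axis, percent; y axis, percent of the cells of each class), by library. The mixed cells form a broad hump with medians of 68.6% and 69.4% between the Krt15 class on the left and the Krt12 class on the right.

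The mixed cells did not sit at 1 common point between the classes. If their RNA were a mix of the 2 class means in 1 proportion, every gene would have the same position. Position is defined here as 0 at the Krt15-class level and 1 at the Krt12-class level in CPM. A mix of cells from part of a class can give unequal positions, and such mixes were not tested. Genes of the Krt12 side had a median position of 0.351 in library 1 and 0.457 in library 2 (mean 0.404 ± 0.0750, SD, n = 2 libraries). Genes of the Krt15 side had a median of 0.584 in library 1 and 0.645 in library 2 (0.615 ± 0.0426, SD, n = 2). On the CPM scale the mixed cells were thus nearer the Krt15 class for corneal-side RNA and nearer the Krt12 class for limbal- and conjunctival-side RNA in each library. The gap between the sides was wider than the gap between libraries. Which class is nearer depends on the scale. In edgeR's log2 changes over both libraries, the 8 widest genes of each side, described below, lay nearer the class rich in them. Lypd2 had log2 changes of 3.76 against the Krt15 class and -1.95 against the Krt12 class, and passed neither test. Krt4 had -1.57 and 4.39 and passed both. Library 1 alone did not show this for every gene, with Slurp1 at 2.85 and -3.15. Below the Krt15-side median lay 103 of 122 Krt12-side genes in library 1 and 104 in library 2. Outside the interval from 0 to 1 lay 1 Krt12-side gene in library 1 and 2 in library 2, and 5 Krt15-side genes in each. The rule's own genes, given as a description, had positions of 0.347 and 0.395 for Krt12 and 0.502 and 0.611 for Krt15.

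**Figure D3:**
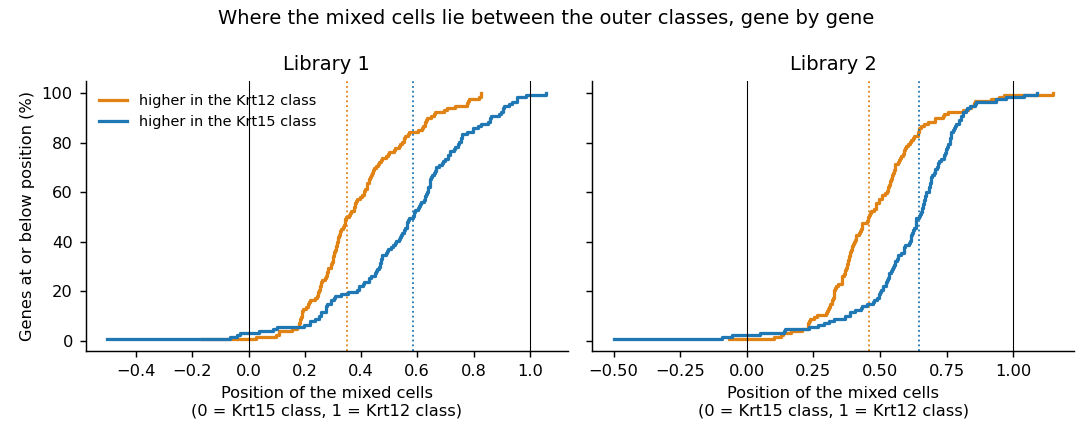
Cumulative share of genes (y axis, percent) by the position of the mixed cells between the Krt15 class at 0 and the Krt12 class at 1 (x axis) for 122 Krt12-side and 121 Krt15-side genes in each library; dotted lines mark medians. The Krt12-side curve lies to the left, with medians of 0.351 and 0.457 against 0.584 and 0.645.

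Among the 8 Krt12-side genes with the widest spread between the outer classes, Slurp1, a secreted Ly6-type protein of the corneal surface, was furthest behind. It stood at 15.4, 111 and 985 CPM in the Krt15 class, the mixed cells and the Krt12 class of library 1 and at 17.4, 261 and 1198 in library 2, positions of 0.0985 and 0.206. Its relative Lypd2 had positions of 0.186 and 0.303, and the water channel Aqp5 of 0.301 and 0.367. Fam169a lay at 0.396 and 0.402. The transcription factor Bnc1 lay at 0.276 and 0.427 and the mitochondrial protein gene Mgarp at 0.376 and 0.495. Ppp1r3c and Pygl, which act in glycogen storage and breakdown, lay at 0.178 and 0.411 and at 0.18 and 0.318, with 11 and 10 mixed UMIs in library 1. All 8 were below 0.5 in both libraries, and all were higher in library 2 than in library 1. In edgeR's quasi-likelihood test of the mixed cells, Fam169a, Bnc1, Ppp1r3c and Pygl passed against both outer classes. Slurp1, Lypd2, Aqp5 and Mgarp passed against neither.

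Of the 8 genes with the widest spread on the Krt15 side, the lipoxygenase gene Alox12e was almost gone from mixed cells of library 1. It stood at 163, 7.92 and 0.666 CPM in the Krt15 class, the mixed cells and the Krt12 class of library 1, and at 522, 77.2 and 4.17 in library 2, positions of 0.955 and 0.859. Alox15, another lipoxygenase, lay at 0.987 and 0.802. The mixed sum of library 1 held only 9 UMIs of Alox12e and 3 of Alox15. Wfdc18, a secreted protein of the protease inhibitor type, lay at 0.927 and 0.781. The lung surfactant lectin Sftpd lay at 0.938 and 0.701, with 8 mixed UMIs in library 1. The mucosal keratin Krt7 lay at 0.716 and 0.784 and Krt4 at 0.587 and 0.740. The receptor gene Flt1 and the serpin Serpinb3a lay at 0.747 and 0.626 and at 0.627 and 0.591. All 8 were above 0.5 in both libraries. In the same test, Alox12e, Krt7, Krt4, Flt1 and Serpinb3a passed against both outer classes, and Wfdc18, Sftpd and Alox15 against neither.

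Gpha2, a limbal marker, lay close to the middle. It stood at 680 CPM in the Krt15 class, 351 in the mixed cells and 39.7 in the Krt12 class of library 1, and at 1009, 511 and 67.1 in library 2, positions of 0.514 and 0.529. In edgeR's quasi-likelihood test it was lower than in the Krt15 class (log2 change -0.97 ± 0.09, SE, adjusted p 1.84e-10) and higher than in the Krt12 class (3.03 ± 0.10, adjusted p 3.53e-25). The libraries agreed in order for Gpha2, with no overlap of the mixed sums and either outer class. Along the Krt12 share, Alox12e of library 1 had gone from 275 CPM under 0.05 to 37.1 at 0.2 to 0.4 and 5.57 at 0.4 to 0.6, while Gpha2 read 778, 464 and 360 there. In library 2 the same 3 steps read 616, 118 and 122 CPM for Alox12e and 997, 710 and 552 for Gpha2.

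Against the Krt15 class, 325 genes were higher in mixed cells (2.93% of 11096 genes tested) and 313 lower (2.82%). Against the Krt12 class, 498 were higher (4.49%) and 307 lower (2.77%). These percentages are the background for the gene lists that follow, and the median log2 change over all tested genes was -0.01 against the Krt15 class and 0.01 against the Krt12 class. Each list was scored over its tested members with edgeR's quasi-likelihood test adjusted over all genes.

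Of 20 corneal genes, 3 were higher in mixed cells than in the Krt15 class and 1 lower, and 3 were higher and 4 lower than in the Krt12 class, with median log2 changes of 0.12 and -0.16. Upk1b, a uroplakin, stood at 34.3, 56.4 and 154 CPM in the Krt15 class, mixed cells and Krt12 class of library 1 and at 66.5, 132 and 270 in library 2, and passed both tests (0.89 ± 0.14 and -1.20 ± 0.12, SE). The gap junction gene Gja1 and Ppp1r3c behaved likewise. Aldh1a1 was lower than in the Krt12 class (-1.42 ± 0.17, adjusted p 8.54e-08) and stood at 19.4 and 45.01 CPM in mixed cells against 23.9 and 49.7 in the Krt15 class. The factor gene Klf5 went the other way, at 410, 312 and 179 CPM in library 1 and 353, 264 and 166 in library 2 from the Krt15 class to the Krt12 class. The 2 most abundant corneal enzymes did not pass. Aldh3a1 stood at 682, 3308 and 7590 CPM in library 1 and at 677, 5550 and 11253 in library 2, with adjusted p of 0.0923 and 0.25 in edgeR's test of the mixed cells against the Krt15 and the Krt12 class. Tkt had the same order in each library, at 896, 2712 and 6218 CPM and at 742, 4175 and 8674.

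Of 19 tested limbal genes, 2 were higher and 4 lower in mixed cells than in the Krt15 class, and 5 were higher and 2 lower than in the Krt12 class, with medians of -0.24 and 0.67. Sox9, the transcription factor named in the series title, stood at 256, 136 and 95.5 CPM in the Krt15 class, mixed cells and Krt12 class of library 1, and at 149, 120 and 74.5 in library 2. Its mixed level was below the Krt15 class (-0.63 ± 0.13, edgeR adjusted p 0.00229) and above the Krt12 class (0.60 ± 0.13, adjusted p 0.00346). Lgals7, a galectin, had 999 and 794 CPM in mixed cells between 1848 and 1899 in the Krt15 class and 404 and 363 in the Krt12 class. Gphb5, the partner subunit of Gpha2, also passed both tests, with 9.69 and 24.8 CPM in mixed cells against 37.2 and 123 in the Krt15 class. The metallothioneins Mt1 and Mt2 were the 2 that were higher than in the Krt15 class, by 0.40 ± 0.08 and 0.46 ± 0.08, and their mixed levels did not pass the test against the Krt12 class. The basal factor gene Trp63 passed neither test, at 145 and 196 CPM in mixed cells.

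Of 13 conjunctival genes, 5 were lower in mixed cells than in the Krt15 class (Krt4, Krt7, Krt8, Cldn3 and Alox12e) and 7 were higher than in the Krt12 class, those 5 with the mucins Muc1 and Muc4. The medians were -1.47 and 2.12. Krt4 stood at 370, 157 and 6.73 CPM in the Krt15 class, mixed cells and Krt12 class of library 1 and at 588, 159 and 8.42 in library 2. Krt19 and Krt13, which passed neither test, had 99.5 and 166 and 284 and 148 CPM in mixed cells. The alternative without cells of 3 or more conjunctival UMIs removes cells by these genes, so it is no separate reading of this list.

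Of 17 immediate early genes, which respond within minutes to stimulation and to tissue dissociation, 5 were higher than in the Krt15 class and 6 lower than in the Krt12 class, with medians of 0.33 and -0.28. Fos stood at 482, 792 and 1500 CPM in library 1 and at 162, 363 and 559 in library 2 (0.93 ± 0.09 and -0.78 ± 0.09, SE). Fosb, Junb, Ier2 and Zfp36 passed both tests in the same order. Without the cells that held conjunctival UMIs, edgeR called 0 genes of the list higher than in the Krt15 class and 7 lower than in the Krt12 class; for the first comparison 7 genes of the list had an unadjusted p under 0.05 with all cells, and DESeq2 called 4. The small heat shock gene Hspb1 had the same order, at 586, 905 and 1645 CPM in library 1 and 553, 1019 and 1574 in library 2, and passed both tests. Of 12 heat shock genes it was the only 1 called against the Krt15 class.

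Of 15 basal adhesion genes, 5 were higher and 1 lower than in the Krt15 class, and 1 was higher and 1 lower than in the Krt12 class. Col17a1, a hemidesmosome collagen, rose from 396 to 573 and 945 CPM in library 1 and from 391 to 800 and 1026 in library 2, and passed both tests (0.79 ± 0.10 and -0.53 ± 0.10, SE). The integrin gene Itga2 had 17.6 and 23.9 CPM in mixed cells against 5.82 and 4.76 in the Krt15 class (1.99 ± 0.32) and 22.3 and 23.0 in the Krt12 class, and its difference from the latter did not pass (-0.13 ± 0.24). The laminin gene Lamb3 was the member lower than in the Krt15 class. DESeq2 called 2 genes of the list higher than in the Krt15 class, and edgeR called 1 without the cells that held conjunctival UMIs.

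Of 17 tested clock genes, 3 were higher than in the Krt15 class (Nr1d1, Dbp and Hlf) and 3 lower than in the Krt12 class (Nr1d1, Per3 and Hlf). At an unadjusted p under 0.05 these numbers were 5 and 3. DESeq2 called 2 and 0, and edgeR called 1 and 0 without the cells that held conjunctival UMIs and 2 and 0 with cells thinned to 2000 UMIs. The libraries differed more than the classes for Dbp, which had 47.5 CPM in the mixed cells of library 1 and 248 in library 2. Of 18 interferon genes, 8 were lower than in the Krt12 class, among them Isg15 with 19.4 and 127 CPM in mixed cells against 65.9 and 215 (-1.05 ± 0.17, SE), and DESeq2 called 2. Against the Krt15 class 2 were lower, Oasl2 and Cxcl10. The medians of the interferon list were -0.11 and -0.79.

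Of 53 genes of G2 phase and mitosis, 5 were lower in mixed cells than in the Krt15 class (Nusap1, Cdc20, Ect2, Anln and Nek2), beside 2.82% of all genes tested. At an unadjusted p under 0.05, 19 of the 53 were lower, edgeR called 10 without the top 5% of doublet scores, and DESeq2 called 0 with all cells. Of 43 S phase genes, edgeR called 0 against either class. At an unadjusted p under 0.05, 6 S phase genes were higher and 3 lower than in the Krt15 class and 1 higher and 3 lower than in the Krt12 class, and DESeq2 called 0. Ccnb1, the gene of the reporter's cyclin, had 175 and 161 CPM in mixed cells, 202 and 199 in the Krt15 class and 175 and 163 in the Krt12 class. The summed G2 and mitosis list came to 13229 and 13925 CPM in mixed cells, 14408 and 16021 in the Krt15 class and 13315 and 14051 in the Krt12 class.

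Of 14 tested keratins other than the pair, 3 were lower than in the Krt15 class and 5 higher than in the Krt12 class, the mucosal Krt4, Krt7 and Krt8 in both and Krt6b and Krt80 in the second, where DESeq2 called 8. Krt5 and Krt14, the basal keratins, passed neither test, with 5223 and 4981 and with 9003 and 6621 CPM in mixed cells. Of 19 surface differentiation genes, 1 was higher (the desmosomal Dsg1a) and 1 lower (the claudin Cldn1) than in the Krt15 class, and 2 were higher and 1 lower than in the Krt12 class. Of 16 tested Notch and Wnt genes, the receptor gene Fzd6 was higher than in the Krt15 class (0.57 ± 0.17, SE), and against the Krt12 class Sfrp1 was higher and Wnt4 lower (0.34 ± 0.09 and -0.45 ± 0.09).

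The second question was which genes lay outside the range that a mix of the outer class means can give. Cells from part of a class can lie beyond the mean of that class. Mixes of such cells were not tested, so the genes below are not shown to be out of reach of every mix or doublet. A gene counted as outside when the mixed cells differed from both classes in the same direction, each with an adjusted p under 0.05 in edgeR's quasi-likelihood test. There were 6 genes above both classes (0.0541% of 11096) and 3 below both (0.027%). At an unadjusted p under 0.05 in both contrasts there were 50 above and 71 below. In plain levels, 1092 genes (9.84%) lay above both classes in both libraries and 1208 (10.9%) below both, and most of these did not pass the test.

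Serpina3n, a secreted inhibitor of serine proteases known as an acute-phase and injury gene, had the widest distance. It stood at 25.02 CPM in the Krt15 class, 79.2 in the mixed cells and 26.0 in the Krt12 class of library 1, and at 5.18, 23.9 and 6.12 in library 2. The mixed cells exceeded the higher outer class 3.04-fold in library 1 and 3.90-fold in library 2, although the libraries themselves differed in level. The log2 change was 1.82 ± 0.22 (SE) against the Krt15 class (edgeR adjusted p 1.31e-07) and 1.71 ± 0.20 against the Krt12 class (adjusted p 4.04e-08). Few cells carried it: 90 UMIs lay in 38 of 149 mixed cells in library 1 and 26 UMIs in 13 of 151 in library 2, and the 5 highest cells held 46.7% and 69.2% of them. Of the same family only Serpina3g and Serpina3i had more than 1 UMI, with 78 and 81 in all against 648 for Serpina3n. Serpina3n lies at chr12:104406729-104414329 (plus strand), next to the window printed above.

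Along finer steps of the Krt12 share, Serpina3n peaked inside the mixed range in both libraries. It read 14.0 CPM in cells with a share under 0.05, 54.9 at 0.2 to 0.4, 91.0 at 0.4 to 0.6, 68.7 at 0.6 to 0.8 and 23.5 above 0.95 in library 1. The values in library 2 were 2.50, 21.8, 27.9, 21.6 and 5.39. Serpina3n was already raised in the neighbouring bins, so the limits of the class do not bound it.

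S100a8 and S100a9, which form the alarmin calprotectin of neutrophils and stressed epithelia, lay above both classes together. S100a9 stood at 257, 483 and 225 CPM in the Krt15 class, mixed cells and Krt12 class of library 1 and at 20.1, 59.7 and 13.9 in library 2. Its log2 changes were 1.07 ± 0.21 (edgeR adjusted p 0.0412) and 1.37 ± 0.21 (adjusted p 0.011). S100a8 stood at 166, 320 and 135 CPM in library 1 and at 3.52, 11.02 and 3.90 in library 2 (1.01 ± 0.15 and 1.26 ± 0.14, SE). The mixed sum of both genes was the highest of its library, but library 2 rested on 12 S100a8 UMIs in 6 cells and on 65 S100a9 UMIs, 73.8% of them in 5 cells. In library 1 the 5 highest mixed cells held 34.2% of the S100a8 and 39.6% of the S100a9 UMIs. At a share of 0.4 to 0.6 in that library the 2 genes read 162 and 262 CPM, below 233 and 331 at 0.2 to 0.4. The immune markers summed to 1.76 CPM in the mixed cells of library 1 and 31.2 in library 2, against 1.75 and 37.9 in the Krt15 class and 0.592 and 3.01 in the Krt12 class. The part of immune cells in the S100 levels was not tested in either library. Without cells of 3 or more conjunctival UMIs both calls were lost (log2 change against the nearer class 0.37 with adjusted p 0.47 for S100a8, and 0.23 with adjusted p 0.709 for S100a9, edgeR). In finer steps S100a9 had no common peak, reaching 682 CPM at a share of 0.6 to 0.8 in library 1 and 109 at 0.2 to 0.4 in library 2.

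1600014C10Rik, a gene without an established name, was abundant in the mixed cells. It stood at 2258, 2832 and 1570 CPM in the Krt15 class, mixed cells and Krt12 class of library 1 and at 2481, 2854 and 1452 in library 2. The median mixed cell held 20 UMIs of it in library 1 and 17 in library 2, against 11 and 11 in the Krt15 class and 6 and 5 in the Krt12 class. Its step above the Krt15 class was small (0.26 ± 0.07, edgeR adjusted p 0.0161) and its step above the Krt12 class was 0.91 ± 0.07 (adjusted p 9.71e-13). The peak along the Krt12 share fell in the mixed range in library 1, at 2865 CPM for 0.4 to 0.6, but below it in library 2, at 3439 for 0.2 to 0.4.

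Gjb2, the gap junction gene connexin 26, stood at 45.4, 67.8 and 49.7 CPM in library 1 and at 31.9, 68.0 and 44.8 in library 2 (0.83 ± 0.17 and 0.52 ± 0.16, SE). Stom, the membrane protein stomatin, stood at 78.5, 110 and 82.1 CPM in library 1 and at 52.4, 83.6 and 46.2 in library 2 (0.57 ± 0.14 and 0.62 ± 0.14). For each of these 2 genes the mixed sum was the highest of its library. With cells thinned to 2000 UMIs both calls were lost (edgeR adjusted p against the nearer class 0.70 for Gjb2 and 0.396 for Stom). Thinned mixed cells held Gjb2 in 7.38% of library 1 and 14.4% of library 2. The shares were 7.47% and 5.40% in the Krt15 class and 8.58% and 7.54% in the Krt12 class.

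Below both classes lay Oasl2, Hist1h1e and Sertad3. Oasl2, an interferon-induced gene of the oligoadenylate synthetase family, stood at 29.7, 13.2 and 35.6 CPM in the Krt15 class, mixed cells and Krt12 class of library 1 and at 114, 59.7 and 90.2 in library 2 (-0.97 ± 0.20 and -0.87 ± 0.20, SE). Hist1h1e, a linker histone, stood at 369, 296 and 412 CPM in library 1 and at 642, 536 and 637 in library 2 (-0.29 ± 0.09 and -0.36 ± 0.09), and its share of reads from near-identical histone copies is uncertain. Sertad3, a small nuclear protein gene, had 6 and 4 UMIs in the mixed cells (5.28 and 3.67 CPM, against 17.2 and 10.98 in the Krt15 class and 13.0 and 10.1 in the Krt12 class). It fell under the mean of 20 CPM used to name genes and is named after its values were seen.

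**Figure D4:**
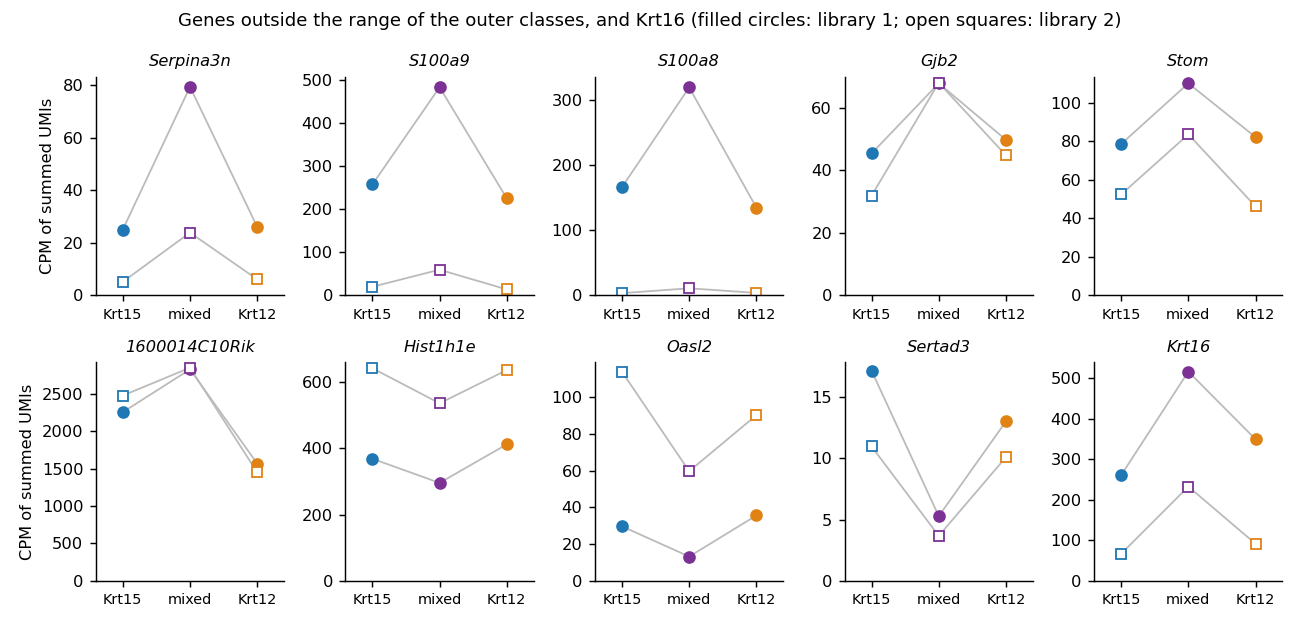
CPM (y axis, linear from 0) in the Krt15 class, mixed cells and Krt12 class. The genes are Krt16 and the 9 outside the range of the outer class means. Filled circles are library 1 and open squares library 2, each the sum over the cells of a class. The mixed point is the highest of its library for the 6 genes above both classes and for Krt16, and the lowest for Hist1h1e, Oasl2 and Sertad3.

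Krt16, a keratin of wounded and hyperproliferative epithelium, had the same pattern without passing. It stood at 260, 516 and 349 CPM in library 1 and at 66.7, 232 and 91.3 in library 2 (1.34 and 0.92 on the log2 scale, edgeR adjusted p 0.12 and 0.197), and in library 2 the 5 highest cells held 85.4% of its 253 mixed UMIs. DESeq2 called it above both classes. Against the Krt12 class its log2 change was -0.52 (edgeR adjusted p 0.0609) without the cells that held conjunctival UMIs and 0.13 (adjusted p 0.71) without the 10% of cells of most UMIs. Of the 16 wound and alarmin genes as a list, 2 were higher (the S100 pair) and 2 lower (Il1rn and Serpinb2) than in the Krt15 class, and 6 were higher and 1 lower than in the Krt12 class. Lcn2, a secreted iron-sequestering defence protein, was the widest of these, at 218 and 175 CPM in mixed cells against 19.1 and 8.60 in the Krt12 class (3.88 ± 0.24, adjusted p 0.000274), while in the Krt15 class it had 267 and 119.

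The calls above both classes were compared over 14 other settings. Serpina3n was called in 13 of them, S100a8 in 12, 1600014C10Rik in 11, Gjb2 in 9, Stom in 8 and S100a9 in 6. Below both classes, Oasl2 was called in 10, Sertad3 in 7 of 13 and Hist1h1e in 4. Each of the 6 genes above both classes stayed on that side of both classes in all 14 settings. With the top 5% of doublet scores removed, which left 125 and 106 mixed cells, 13 genes were above both classes. With the 10% of cells of most UMIs removed 12 were. The first 13 included all 6, and the 12 included 4 of them. The other genes of both sets had not been called with all cells, and the part of doublets in these counts was not tested. Without cells that held at least 3 conjunctival UMIs, which left 88 and 84 mixed cells, 4 genes were above both classes, and of the 6 only Serpina3n was among them. That filter also cut the Krt15 class from 625 to 157 cells in library 1 and from 900 to 124 in library 2.

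**Figure D5:**
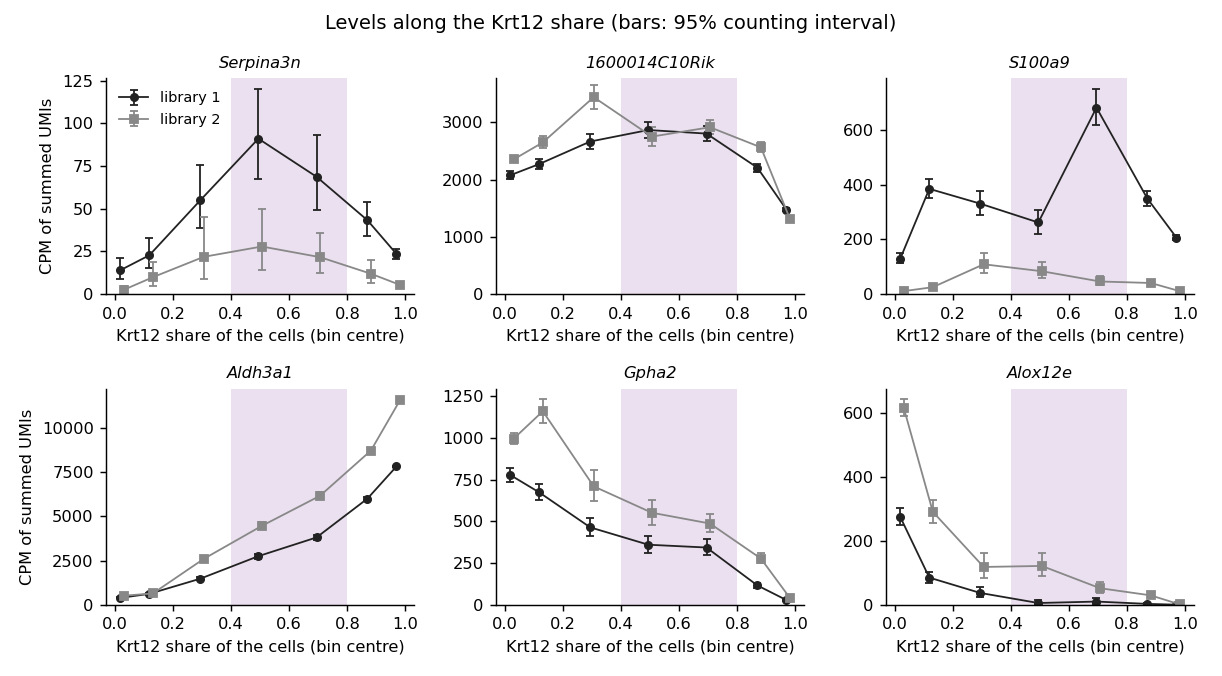
CPM (y axis) in cells binned by Krt12 share (x axis, bin centres; mixed range shaded) for 6 genes in each library, with 95% intervals that cover counting error only. Serpina3n is highest at 0.4 to 0.6 in both libraries (91.0 and 27.9 CPM), Aldh3a1 climbs through the mixed range, Gpha2 declines through it and Alox12e is at 5.57 CPM at 0.4 to 0.6 in library 1 and at 122 in library 2.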

How the data were processed

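The authors deposited raw UMI counts, whole numbers per gene and barcode, for 31053 genes and 6752 barcodes (37031981 UMIs). The submitters' processing notes name Cell Ranger 3.1.0, Seurat 5.0.0 and GRCm38 (mm10), with no role for each, and whether depth was equalised between libraries is not given in the sources used here. Barcode suffixes were taken as libraries 1 and 2 (19001107 and 18030874 UMIs). Barcodes under 500 genes (475) or with 20% or more mitochondrial UMIs (311) were left out. Counts were summed per class and library, 6 sums in all, without Krt12 and Krt15. They were tested with edgeR 4.0.16 in R 4.3.3 (quasi-likelihood, robust, filterByExpr, total-UMI scaling because only shares of totals keep a mix between its parts, library as block, 2 residual degrees of freedom), with Benjamini-Hochberg adjustment, called at 0.05. Alternatives included DESeq2 1.42.0. Scrublet was run in scanpy 1.11.5. Same-library sums share 1 suspension, hence the block. SE is the log2 change over the square root of F.

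Genes outside the range were named up to 10 per direction by distance, with at least 20 CPM on average and the same sign in both libraries, besides list members outside the range, the 8 widest axis genes per side and, per list, members of high CPM. List members with lower CPM that are named were picked after their values were seen. The members, gene lists and tests were chosen with earlier results of these data known. The fits were tested on simulated data. The simulation used a fixed mix of the class means and changes larger than several of those called here, so it does not bear on the smaller ones.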

Additional observations from a re-analysis of the deposited data

How the results depend on the processing

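Counts of called genes depended on the setting far more than directions did, and the causes were not tested. Without the replicate block, which pairs the sums of 1 library, 0 genes were above and 0 below both classes, and 32 were higher and 8 lower than in the Krt15 class and 62 higher and 6 lower than in the Krt12 class. No other pairing of samples was possible because the design has 1 group. Genes above both classes numbered 11 with no filter on low counts, 13 without the top 5% of doublet scores and 12 without the top 10% of UMIs; genes below both numbered 1 with DESeq2 and 5 without cells that held conjunctival marker UMIs. Against the Krt15 class, higher and lower genes were 188 and 113 with DESeq2, 166 and 119 for a Krt12 share of 0.5 to 0.7, 98 and 61 without conjunctival UMIs, and 125 and 97 with cells thinned to 2000 UMIs. Against the Krt12 class they were 289 and 94, 273 and 163, 250 higher without conjunctival UMIs, and 128 and 84. The position of Krt12-side genes moved from 0.404 to 0.328 without conjunctival UMIs, and that of Krt15-side genes moved by less than its SD in the settings run. The share of mixed cells (4.85%) was 2.47% for a share of 0.5 to 0.7, 4.34% with at least 20 keratin UMIs, 5.34% with at least 1000 genes, 3.88% and 4.29% without high doublet scores or deep cells, and 3.95% without conjunctival UMIs. Leaving out 1 library leaves 3 sums and no residual degrees of freedom, so it gives values with no test. The log2 distance of the named genes to the nearer class kept its sign in each library alone. The number of libraries, 2, limits the precision.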
